A study of Mus musculus with 5 samples.

Results

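The wells described here are brain T cells that carried messenger RNA of the CD4 lineage and none of CD8. The wells were chosen by their UMI counts of 5 genes, as follows. A well was a member when it held 1 sorted cell, at least 400 unique molecular identifiers (UMIs, each standing for 1 captured RNA molecule) outside the spike-in controls, and no more than 30% of these from mitochondrial genes. It also had to have 0 UMIs of Cd8a and Cd8b1, the chains of the CD8 coreceptor, and at least 1 UMI of Cd4, Cd40lg or Izumo1r. Of 1482 wells that passed the quality limits, 145 were members. A further 630 wells had a Cd8a or Cd8b1 UMI and no Cd4 UMI and are called CD8 wells below. Another 25 wells had both a Cd8a or Cd8b1 UMI and a Cd4 UMI, and 682 had no UMI of any of the 5 defining genes. Because UMIs of these 5 genes chose the wells, their levels are given as a description, without a test.

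The 5 mice were each sorted onto a plate of their own, with 384 wells per plate, and profiled by a plate-based single-cell method that reads UMIs from poly(A) RNA. All 5 were Grl1loxP/loxP, so that the glucocorticoid receptor gene of the treated and the control animals alike was flanked by loxP sites. The TAT-CRE mice 207, 208 and 215 (18, 18 and 19 weeks old) received cell-permeable Cre recombinase into the brain ventricles, aimed at the choroid plexus, and the PBS mice 216 and 218 (19 and 16 weeks old) received buffer. All 5 were then exposed to foot shock on 2 consecutive days (14 shocks of 1 mA, then 5 of 0.7 mA), and on day 14 CD45+CD11b-TCRβ+ cells were sorted from perfused brain parenchyma without choroid plexus. There was no unstressed group. The tissue aimed at by the Cre was not sampled, so Nr3c1, the glucocorticoid receptor gene, does not check the labels here: in member wells it was at 239, 457 and 515 CPM (UMIs per 1000000, outside spike-ins and ribosomal RNA) for TAT-CRE 207, 208 and 215, and at 223 and 893 CPM for PBS 216 and 218.

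CD4 T cells recognise peptides on MHC class II molecules, with CD4 as coreceptor, and act mainly by helping other cells through cytokines and surface ligands. CD40 ligand, encoded by Cd40lg, is the surface protein with which activated helper cells stimulate B cells and antigen-presenting cells, and Izumo1r encodes folate receptor 4, known from regulatory and anergic CD4 cells. CD8 T cells recognise MHC class I and are known for killing through perforin and granzymes. In the brain both lineages are rare outside disease and are found mainly at its borders and around vessels.

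Each mouse was its own plate and amplification batch, and all 5 went through 1 sequencing batch. The plate of a mouse, its amplification and the mouse itself therefore cannot be told apart. Whether a library pooled animals was not stated. The plates used the same 384 cell barcodes, but their pool barcodes differed and all 1920 wells had an identifier of their own, so no well was counted under more than 1 mouse. Members had a median of 2277, 1310.5 and 1690.5 UMIs per well for TAT-CRE 207, 208 and 215, and 1609 and 2987 for PBS 216 and 218. Compared with CD8 wells of the same mouse, the difference in median UMIs ranged from -229.5 to 226 (mean 7.7, exact sign-flip permutation over the 5 mice, p = 1). Wells without a lineage UMI were shallower than members in 5 of 5 mice, by 532.5 UMIs on average (an exact sign-flip permutation gave the smallest p that 5 mice allow, which is above 0.05). The mitochondrial share was 0.887 percentage points higher in members than in CD8 wells on average, and higher in 5 of 5 mice. Sorted cells carry variable amounts of RNA, and a well without a coreceptor UMI can hold a cell that makes the coreceptor. In the 20 wells sorted empty, Cd4, Cd40lg and Izumo1r were at 0, which allows a share of up to 15% of empty wells, and Ccl5 had a UMI in 3 of the 20.

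Cd4 itself chose most of the members: 85 of the 145 wells had a Cd4 UMI, 47 a Cd40lg UMI and 39 an Izumo1r UMI. The 3 genes were seldom found together, with at least 2 of them in 25 wells and all in 1 well. Cd4 (chromosome 6, 124864692 to 124888221, minus strand, GRCm38) was the only defining gene in 62 wells, Cd40lg (chromosome X, 57212143 to 57224042, plus strand) in 32 and Izumo1r (chromosome 9, 14885814 to 14903949, minus strand) in 26. At the edge of the rule, 48 members rested on a single UMI and 97 on 2 or more, with up to 19 in a well. Just outside it, 25 wells with Cd4 also held Cd8a or Cd8b1. Their median was 2998 UMIs, 13 of them had 1 CD8 UMI, and 15 had 1 Cd4 UMI. Among the 630 CD8 wells, 8 had a Cd40lg UMI and 15 an Izumo1r UMI, together 23 wells or 3.65% (exact 95% interval 2.33 to 5.43). Among the 827 wells without a Cd8a or Cd8b1 UMI the same genes were found in 83, or 10.04%. Cd40lg and Izumo1r were thus also found in some CD8 wells, at a lower share.

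By mouse, Cd4 stood at 1867, 1015 and 1170 CPM in members of TAT-CRE 207, 208 and 215, and at 2174 and 728 CPM in those of PBS 216 and 218. Cd40lg stood at 651, 685 and 234 CPM against 502 and 846 CPM, and Izumo1r at 391, 710 and 632 CPM against 557 and 634 CPM. The treatment groups overlapped for each gene. Of the remaining markers of the label, the costimulatory receptor gene Icos had UMIs in 20 members, at 564, 406 and 258 CPM (TAT-CRE) and 613 and 23.5 CPM (PBS), and in 45 CD8 wells. It was higher in members in 4 of 5 mice, with a log2 fold change of 0.89 over CD8 wells and an adjusted p of 0.711 under edgeR's quasi-likelihood test. Tnfrsf4, encoding the costimulatory receptor OX40, had UMIs in 7 members and 11 CD8 wells (log2 fold change 0.94, adjusted p = 0.919). Icos overlaps the annotated gene Gm37039 on its strand. Trbc1, the remaining marker, was called higher with 1 way of scaling and is described below. The members are called CD4-lineage wells for the transcripts that chose them.

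CD4-lineage wells made up a larger share of the sorted T cells in the TAT-CRE mice than in the PBS mice. They were 10.6% (33 of 311 wells, exact 95% interval 7.42 to 14.6), 12.5% (38 of 303, 9.03 to 16.8) and 12.1% (36 of 298, 8.61 to 16.3) of the kept wells in TAT-CRE 207, 208 and 215. In PBS 216 and 218 they were 5.74% (17 of 296, 3.38 to 9.04) and 7.66% (21 of 274, 4.81 to 11.5). These intervals cover counting error only. The group means were 11.7% ± 1.01 (SD, n = 3) and 6.70% ± 1.36 (SD, n = 2), a difference of 5.04 percentage points. The groups did not overlap, and the exact two-sided permutation p was 0.1, the smallest that 3 mice against 2 can give, so the design cannot pass 0.05. Among wells assigned to either lineage the share was 15.9%, 33.3% and 22.4% against 11.3% and 14.8% (difference 10.9 points, exact permutation p = 0.2). TAT-CRE 208, the highest by that measure, also had 187 wells without a lineage UMI, the most of any plate, and 76 CD8 wells, the fewest. Without TAT-CRE 208 that difference was 6.13 points.

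The share is also given by defining gene, as a description. CD4-lineage wells with a Cd4 UMI were 7.02% ± 0.725 (SD, n = 3) of kept wells in TAT-CRE mice and 3.66% ± 1.04 (SD, n = 2) in PBS mice. Those with Cd40lg were 3.50% ± 1.14 against 2.70% ± 2.38. For Izumo1r the shares were 3.20% ± 1.11 and 1.78% ± 1.09. Each mean was higher in TAT-CRE mice, and whether the genes differ in this was not tested. With every well thinned to 400 UMIs, the share of CD4-lineage wells was 6.47% against 3.50% (exact permutation p = 0.2, n = 3 and 2). A share counts sorted wells and says nothing of cell numbers in the brain.

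**Figure D1:**
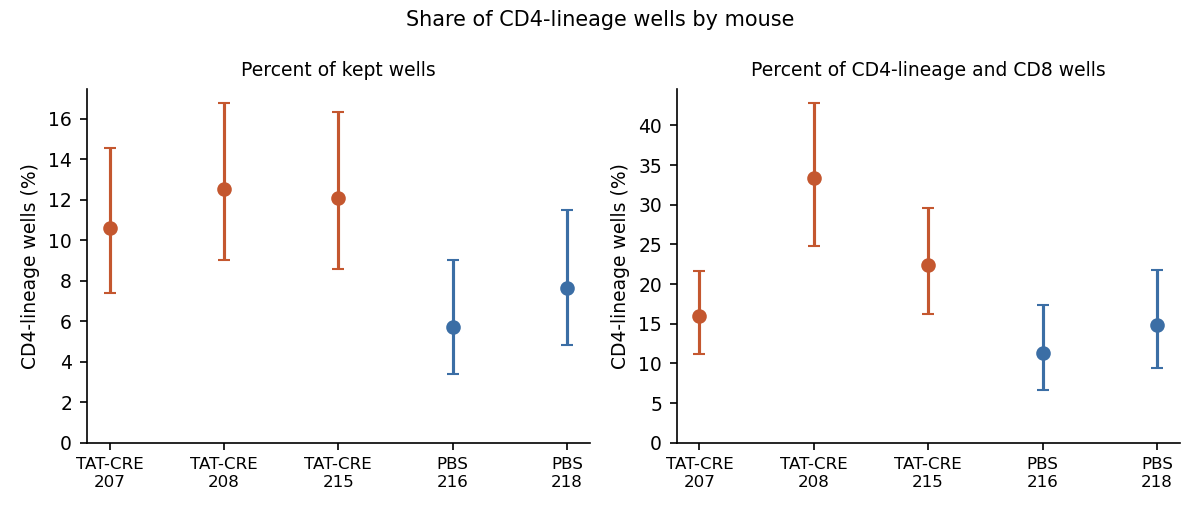
CD4-lineage wells as a percentage of all kept wells and of CD4-lineage plus CD8 wells, 1 point per mouse, with exact 95% binomial intervals as bars. The 3 TAT-CRE mice lie between 10.6% and 12.5% of kept wells, above the PBS mice at 5.74% and 7.66%. By the other denominator TAT-CRE 208 stands highest at 33.3%.

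To compare the lineages, UMIs were summed per mouse and class and tested over 5607 genes with edgeR, with the mouse as a block and the 5 defining genes left out. CD4-lineage wells held less RNA of the chemokine and killing genes that marked the CD8 wells. With TMM scaling 16 genes were lower (0.285% of genes tested) and 1 gene was higher (0.0178%) at an adjusted p below 0.05. With plain library sizes 6 were lower (0.107%) and 7 higher (0.125%). Of the 5607 genes, 4309 had a negative log2 fold change with TMM and 3635 with library sizes. The median gene moved by -0.59 on the log2 scale with TMM and by -0.30 with library sizes. Over the 1927 genes with 100 or more UMIs it moved by -0.44 and -0.15. Genes entered with 30 UMIs over both classes, and the CD8 sums were larger, so genes of low level passed mainly through the CD8 sums, which favours negative values among them. The TMM factors were 1.08 to 1.54 for the CD4-lineage sums, which held 17941 to 46065 UMIs outside ribosomal RNA, and 0.780 to 1.01 for the CD8 sums of 71319 to 230840 UMIs. Calls are therefore read against these medians, and 6 genes were called under each of 4 ways of scaling and testing (TMM, library sizes, relative log expression and DESeq2): Ccl5, Ly6c2, Nkg7, Ms4a4b and Prf1 lower, and Egr1 higher. The count of lower genes with TMM depended on the mice: it was 8, 7, 5 and 10 without TAT-CRE 207, TAT-CRE 208, TAT-CRE 215 and PBS 218, and the count of higher genes was 2, 0 and 2 without TAT-CRE 207, TAT-CRE 208 and PBS 218.

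Ccl5 encodes a chemokine that memory and effector CD8 cells store and release (chromosome 11, 83525778 to 83530518, minus strand). It was at 2062, 786 and 1100 CPM in members of TAT-CRE 207, 208 and 215 and at 2285 and 1597 CPM in those of PBS 216 and 218. In CD8 wells it was at 7663, 3982 and 6104 CPM and at 6710 and 3713 CPM. Every CD8 sum lay above every CD4-lineage sum. The log2 fold change was -2.19 ± 0.16 (SE) with TMM (edgeR adjusted p = 3.07e-39) and -1.89 with library sizes. Between classes, the edgeR p-values with TMM, library sizes or relative log expression rest on a variance shared over genes. So do the standard errors, given as ± after a log2 fold change. Neither therefore measures the spread of a single gene between these mice. The size of the Ccl5 p depended on the fit. The edgeR adjusted p was 2.70e-06 with only genes of at least 100 UMIs and 3.44e-07 without the mouse as a block. A Ccl5 UMI was found in 69 of 145 members (47.6%) and in 480 of 630 CD8 wells (76.2%).

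Ly6c2 encodes a surface glycoprotein of memory CD8 cells and of monocytes (chromosome 15, 75108158 to 75111970, minus strand). Its levels were 239, 76.1 and 93.6 CPM (TAT-CRE) and 502 and 470 CPM (PBS) in members, and 1304, 659 and 1396 CPM and 893 and 1526 CPM in CD8 wells. The classes did not overlap, with a log2 fold change of -2.58 ± 0.32 (edgeR adjusted p = 4.46e-12, and 0.00231 with only genes of at least 100 UMIs). Nkg7, a granule membrane protein of cytotoxic lymphocytes (chromosome 7, 43437073 to 43438249, plus strand), was at 630, 76.1, 398, 557 and 540 CPM in members, in the order TAT-CRE 207, 208, 215, PBS 216, 218. In CD8 wells it was at 1252, 883, 1316, 1442 and 1016 CPM. Again the classes did not overlap (log2 fold change -1.85 ± 0.29).

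Prf1, encoding the pore-forming protein perforin (chromosome 10, 61297833 to 61304680, plus strand), was nearly absent from the members. It had 4 UMIs in 3 of the 145 wells, with 65.1 CPM in TAT-CRE 207, 23.5 CPM in PBS 218 and 0 in the other three mice. In CD8 wells it stood at 381, 84.1, 383, 293 and 226 CPM, and its log2 fold change was -4.13 ± 0.88 (edgeR adjusted p = 0.0026). Ms4a4b, a membrane protein of the MS4A family in T cells (chromosome 19, 11443553 to 11467055, plus strand), was at 1281, 1826, 609, 1115 and 705 CPM in members and 2790, 1458, 2235, 2322 and 2058 CPM in CD8 wells. Members were lower in 4 of 5 mice and higher in TAT-CRE 208 (log2 fold change -1.36 ± 0.21). With only genes of at least 100 UMIs, neither Prf1 nor Ms4a4b passed (edgeR adjusted p = 0.0988 for each).

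**Figure D2:**
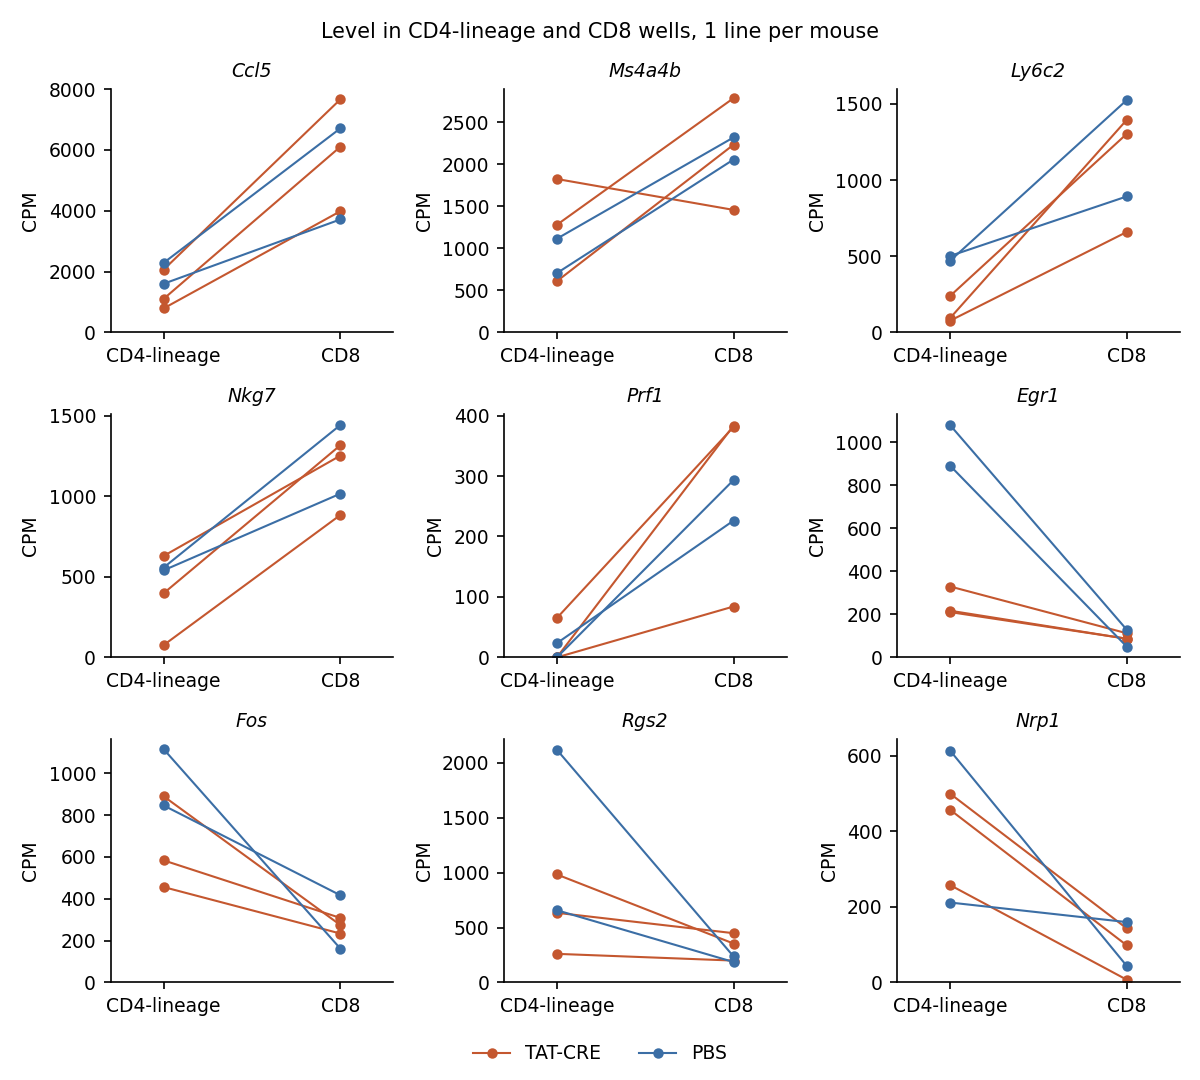
CPM outside spike-ins and ribosomal RNA in CD4-lineage and CD8 wells of each mouse for 9 genes, with 1 line joining the classes of a mouse. Ccl5, Ly6c2, Nkg7 and Prf1 fall from CD8 to CD4-lineage wells in 5 of 5 mice and Ms4a4b in 4 of 5, while Egr1, Fos, Rgs2 and Nrp1 are higher in CD4-lineage wells in 5 of 5.

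The other genes called lower with TMM fell into a few kinds. Gzmb, encoding granzyme B, had UMIs in 5 members, all in TAT-CRE 207 (217 CPM) and TAT-CRE 208 (152 CPM), and the other three mice were at 0 (log2 fold change -2.85 ± 0.68, edgeR adjusted p = 0.0143). Ctsw, encoding the cytotoxic-cell protease cathepsin W, was at 0 to 305 CPM in members and 315 to 603 CPM in CD8 wells. Ctla2a, Tra2b, Pabpn1, Ms4a6b and the interferon-inducible gene Epsti1 had log2 fold changes of -2.83, -3.80, -2.18, -1.27 and -1.43. Ctla2a and Pabpn1 overlap other annotated genes on the same strand, so their reads may be shared. None of these 7 genes passed the test with library sizes. Hsp90ab1, a heat shock protein gene, was called lower under TMM and library sizes (-1.03 and -0.73), and ranged in members from 1040 CPM in TAT-CRE 208 to 3947 CPM in PBS 218. B2m (-0.54), Rpl32 (-0.62) and the processed pseudogene Gm13456 (-0.70), which may share reads with its parent gene, lay close to the median shift of -0.59 and did not pass with library sizes.

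In the other direction, 1 gene was higher in CD4-lineage wells with TMM, an immediate early gene of the kind switched on soon after a cell is stimulated. Egr1, a zinc finger transcription factor (chromosome 18, 34859823 to 34864984, plus strand), was at 217, 330 and 211 CPM in members of TAT-CRE 207, 208 and 215 and at 892 and 1081 CPM in those of PBS 216 and 218. In CD8 wells it was at 86.6, 112 and 86.8 CPM and at 49.9 and 129 CPM. The lowest member value exceeded the highest CD8 value, and the log2 fold change was 1.98 ± 0.52 with TMM (edgeR adjusted p = 0.0494) and 2.28 with library sizes (adjusted p = 0.00507). As for Ccl5, these p-values and the SE rest on the variance shared over genes. The call rests on few cells: 13 members held all 94 Egr1 UMIs, up to 18 in a well, and 46 of them came from PBS 218. Leaving out PBS 218, PBS 216 or TAT-CRE 208 ended the call (edgeR adjusted p = 0.498, 0.258 and 0.0702), while the log2 fold change stayed at 1.79, 1.67 and 2.16. With members limited to wells with a Cd4 UMI it was 0.80 (adjusted p = 0.710), and with each gene limited to 3 UMIs per well 1.06 (adjusted p = 0.662).

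Fos, encoding a subunit of the AP-1 transcription factor, was at 456, 583, 890, 1115 and 846 CPM in members against 234, 309, 275, 162 and 417 CPM in CD8 wells. Rgs2, a regulator of G protein signalling, was at 261, 634, 983, 2118 and 658 CPM against 199, 449, 354, 237 and 186 CPM. Both were higher in 5 of 5 mice, by 1.15 and 1.18 on the log2 scale with TMM (edgeR adjusted p = 0.188 and 0.132) and by 1.45 and 1.48 with library sizes (adjusted p = 0.0212 and 0.00838). Nrp1, encoding the semaphorin coreceptor neuropilin-1 known from thymus-derived regulatory T cells, was at 499, 457, 258, 613 and 211 CPM in members. Its CD8 values were 143, 98.2, 7.23, 43.7 and 160 CPM. Every member sum lay above every CD8 sum, and the gene passed with library sizes (2.37, edgeR adjusted p = 0.0214) but not with TMM (2.08, adjusted p = 0.106).

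Also called higher by edgeR with library sizes, and not with TMM, were Psip1 (1.80, adjusted p = 0.0134), Mpp1 (3.59, adjusted p = 0.0332) and Trbc1 (0.85, adjusted p = 0.0436). Psip1, a chromatin reader, and Mpp1, a membrane scaffold protein, were singled out after their values were seen. Psip1 was at 521, 330, 538, 892 and 752 CPM in members and 230, 14.0, 246, 162 and 293 CPM in CD8 wells. Mpp1 rested on 7 members.

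**Figure D3:**
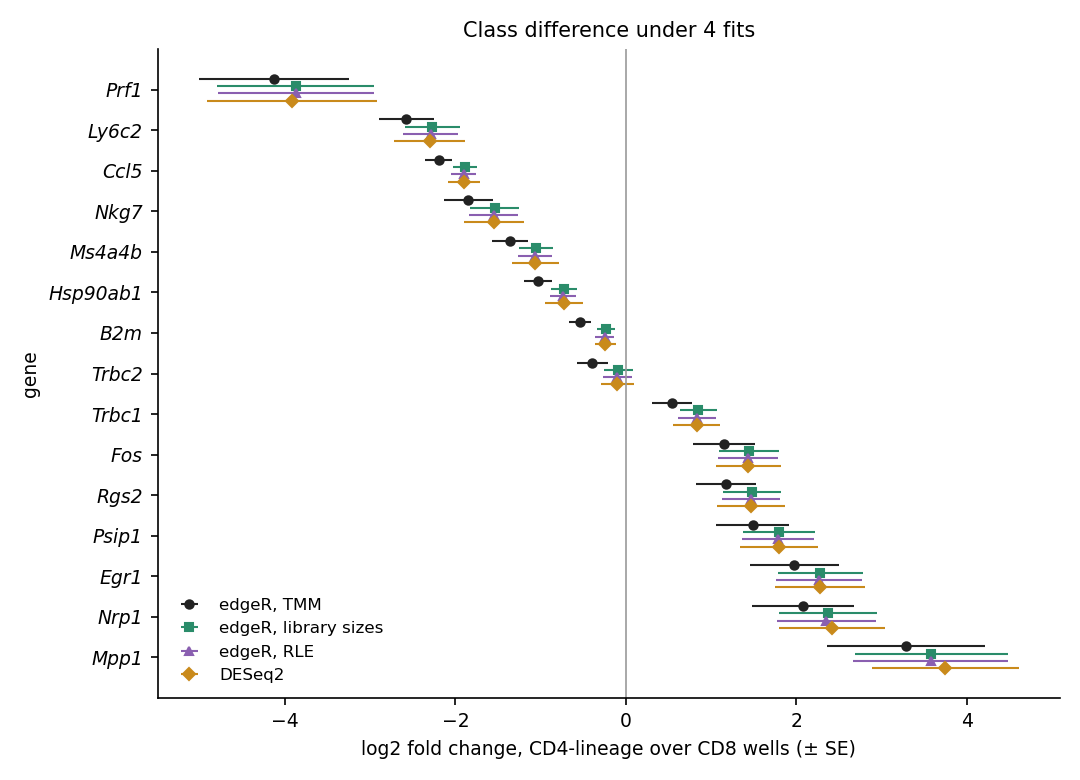
Log2 fold change of CD4-lineage over CD8 wells for 15 genes, with standard errors, under edgeR with TMM, library sizes or relative log expression and under DESeq2. The edgeR standard errors rest on a variance shared over genes and do not measure the spread of a single gene between mice. The genes below 0 under each fit include Ccl5 at -2.19 and Prf1 at -4.13 with TMM. Egr1, Fos, Rgs2, Psip1, Nrp1 and Mpp1 are above 0, and the TMM values lie lowest.

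The 19 listed early response genes were described as a group. Of the 16 tested, 1 was called higher with TMM and 3 with library sizes (Egr1, Fos and Rgs2), and 10 of 16 had a positive log2 fold change. Over all genes tested with TMM, 1298 of 5607 were positive. The median of the list was 0.27, beside -0.59 over all genes tested. Summed over the list, members held 6122 to 8584 CPM and CD8 wells 3549 to 5090 CPM, without overlap. Junb, another AP-1 subunit, had the highest level, 946 ± 577 CPM in members against 440 ± 102 CPM in CD8 wells (SD, n = 5), and did not pass under edgeR (adjusted p = 0.415). Wells with these transcripts overlapped only in part. Fos UMIs were in 31 members, Junb in 54 and Rgs2 in 37, with Fos and Junb together in 20, Fos and Rgs2 in 13, and Egr1 and Fos in 3. Members and CD8 wells of a mouse were sorted onto the same plate.

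The T cell receptor genes offered a comparison of nearly identical sequences. The β chain of every αβ T cell ends in a constant region from either Trbc1 or Trbc2, which lie beside each other on chromosome 6. The script-matched coding sequences, from GENCODE on GRCm38, agreed at 488 of 512 compared bases (95.3%), so short reads can fail to tell them apart. The following 84 bases of the plus strand are shown because they hold 13 of the 24 differing bases, which are in capitals; Trbc1 is at chr6:41539234-41539317 and Trbc2 at chr6:41547777-41547860.
Trbc1: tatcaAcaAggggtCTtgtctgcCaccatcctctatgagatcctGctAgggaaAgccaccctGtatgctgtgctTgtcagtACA
Trbc2: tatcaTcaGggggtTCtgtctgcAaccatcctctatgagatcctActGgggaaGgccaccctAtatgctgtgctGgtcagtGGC

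Trbc1 was at 912, 2055, 1100, 2174 and 1785 CPM in members and 325, 1528, 1251, 961 and 688 CPM in CD8 wells, in the order TAT-CRE 207, 208, 215, PBS 216, 218. Trbc2 was at 1628, 2055, 2341, 2341 and 2279 CPM against 2283, 2187, 1895, 2634 and 2267 CPM. The classes overlapped for both genes, and within a mouse Trbc1 was higher in members in 4 of 5. A Trbc1 UMI was in 30.6% of members with a Cd4 UMI (mean 1716 CPM) and 46.7% of those without one (1420 CPM). In CD8 wells it was in 28.6% (951 CPM). Its log2 fold change was 0.54 with TMM, 0.13 with UMIs limited to 3 per gene and well, and -0.07 with wells thinned to 400 UMIs before the classes were chosen. Trbc1 made up 42.0% ± 7.80 (SD, n = 5) of the Trbc UMIs of members and 28.7% ± 11.98 of those of CD8 wells. It was higher in 4 of 5 mice, by 13.3 percentage points on average (exact sign-flip permutation, p = 0.125). The share in CD8 wells ranged from 12.5% in TAT-CRE 207 to 41.1% in TAT-CRE 208. Of the members, 25 had Trbc1 UMIs alone, 47 Trbc2 alone, 29 both and 44 neither. How far reads of the 2 genes were exchanged in counting was not tested. Over the 8 receptor and CD3 chain genes, 0 were called with TMM and Trbc1 alone with library sizes, with a median of -0.41.

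No gene of helper identity passed the test. Of the 12 listed genes 0 were called with TMM or library sizes. With TMM 7 were higher and 5 lower, beside 1298 higher and 4309 lower over all genes tested. Their median log2 fold change was 0.16. Tcf7, a transcription factor of T cell identity and memory, was at 826 ± 422 CPM in members and 526 ± 144 CPM in CD8 wells (SD, n = 5), and the surface glycoprotein gene Cd6 at 368 ± 172 against 216 ± 81.3 CPM. The list's sum was higher in members in 5 of 5 mice, 3750 ± 680 against 2707 ± 384 CPM. Zbtb7b, which encodes ThPOK, the factor that commits thymocytes to the CD4 lineage, had UMIs in 7 members, 13 CD8 wells and 13 wells without a lineage UMI. It is named for its role after its values were seen, and was too rare to compare the classes at this depth.

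Transcripts of regulatory T cells were found in a few members. Foxp3, their lineage factor, had UMIs in 5 of 145 members (3.45%), in 3 of 630 CD8 wells (0.476%) and in 10 of 682 wells without a lineage UMI (1.47%). The 12 Foxp3 UMIs were spread as 6 in TAT-CRE 208, 5 in TAT-CRE 215 and 1 in PBS 218. Il2ra, encoding the high-affinity chain of the interleukin-2 receptor, was in 7 members, Ikzf2 (Helios) in 5, and Tnfrsf18 (GITR) in 15. Ctla4, an inhibitory receptor of regulatory and activated cells, was in 18 members (12.4%) and 36 CD8 wells, at 321 ± 191 against 100 ± 59.8 CPM (SD, n = 5), with an adjusted p of 0.527 under edgeR. The other members of the list with UMIs were Nrp1 (18 wells), Capg (22), Tigit (13), Ccr8 (3), Lrrc32 (2) and Ikzf4 (2). Of the 14 listed genes 7 were tested, 0 passed with TMM and Nrp1 passed with library sizes, and their median was 0.83.

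Effector cytokines of the helper subsets were rare. The type 17 cytokine gene Il17a had 16 UMIs in 3 members, all of TAT-CRE 208, and Il17f had 7 UMIs in 2 members, both of TAT-CRE 207. Ifng, the type 1 cytokine, had 0 UMIs in 145 members, which allows a share of up to 2.07%, and Csf2 and Il10 were also at 0. A UMI of Il17a, Il17f, Ifng or Csf2 was found in 5 of 145 members, all from these 2 mice, and in 9 of 630 CD8 wells, too few to compare over mice. The type 2 genes Il4 and Gata3 were in 2 and 21 members, and Gata3, which T cells also express outside that subset, was in 30 CD8 wells. Il13, Il5, Il21 and Il22 were at 0, and Il2 was in 4 members.

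Regulators of the subsets were as sparse. Tbx21, the type 1 factor, was in 1 member and 19 CD8 wells, and Bcl6, the follicular helper factor, in none of the members. Cxcr3, a receptor of type 1 cells, was in 19 members and 94 CD8 wells. Other type 1 genes included Il18r1 (12 wells), Stat4 (11), Hopx (11), Il18rap (5) and Il12rb2 (1), with Nkg7 the called one, lower. Il1rl1, Areg and Ccr4 of the type 2 list were in 2 members each. Of the follicular list, Cxcr4 was in 33 members, Pdcd1 in 12, Cxcr5 and Sh2d1a in 2 each, and Tox2 in 1. Maf, a factor of helper cells that make interleukin-4, interleukin-10 or interleukin-17, was in 16 members (11.03%) and 12 CD8 wells (1.90%). TAT-CRE 207, 208 and 215 held 14, 39 and 10 Maf UMIs and PBS 216 and 218 held 1 and 0, and its log2 fold change of 2.70 ± 0.87 did not pass (edgeR adjusted p = 0.213). Besides it, the type 17 list included Rora in 10 members, Tmem176a in 7, Ramp1 in 6, Tmem176b in 5, Ccr6 in 2 and Il1r1 in 1.

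**Figure D4:**
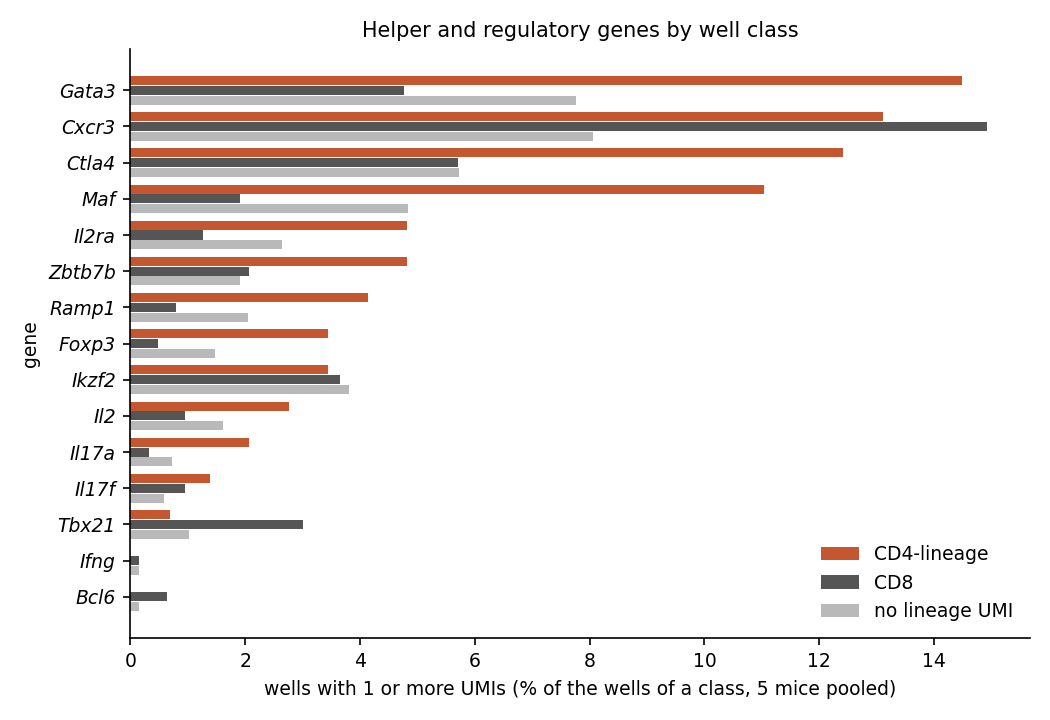
Percentage of wells with at least 1 UMI of 15 helper, regulatory and effector genes in CD4-lineage wells (145), CD8 wells (630) and wells without a lineage UMI (682), pooled over mice, so depth differs between classes. Foxp3 reaches 3.45%, 0.476% and 1.47%, and Maf 11.03% of CD4-lineage against 1.90% of CD8 wells.

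Costimulatory genes, the receptors and ligands of T cell help, were not called as a group in either direction. Of 15 listed, 11 were tested and 0 passed. With TMM 6 of 11 lay above 0, beside 1298 of 5607 over all genes tested, and the median log2 fold change was 0.31. Tnfsf8, encoding CD30 ligand, was at 261, 761 and 117 CPM in members of TAT-CRE 207, 208 and 215 and at 55.7 and 47.0 CPM in those of PBS 216 and 218 (log2 fold change over CD8 wells 2.02 ± 0.88, edgeR adjusted p = 0.415). Genes of proximal receptor signalling had a median of -0.37 with 0 of 13 called. Within that list Lat, the adaptor that couples the receptor to calcium and Ras signalling, was at 926 ± 425 CPM in members and 540 ± 87.7 CPM in CD8 wells (SD, n = 5).

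Several killing genes were lower in the members. Of 11 cytotoxic granule genes tested, 4 were lower with TMM (Nkg7, Prf1, Gzmb and Ctsw) and 2 with library sizes (Nkg7 and Prf1). With TMM 10 of 11 had a negative log2 fold change, beside 4309 of 5607 over all genes tested, and the median was -2.55. Those of low level entered the test mainly through the CD8 sums, which favours negative values. The list's sum was 1871 ± 382 CPM in members and 4069 ± 561 CPM in CD8 wells (SD, n = 5), lower in 5 of 5 mice. Srgn, which encodes the granule proteoglycan serglycin and is not limited to killers, was at 771 ± 174 against 876 ± 126 CPM. Gzmk, a granzyme of memory cells, was at 233 ± 178 against 348 ± 219 CPM and higher in members in 3 of 5 mice. The 6 tested NK receptor genes had a median of -1.90 with 0 called, and entered the test mainly through the CD8 sums. Klrd1 (CD94) was at 70.0 ± 48.2 CPM in members against 206 ± 72.3 CPM in CD8 wells (edgeR adjusted p = 0.36). Eomes, a factor of killer and memory cells, had UMIs in 2 members.

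Genes shared by brain-dwelling memory T cells were present in the members too. Cxcr6, a receptor of resident cells, was at 930 ± 216 CPM in 37 members and 1222 ± 257 CPM in CD8 wells (edgeR adjusted p = 0.256). Itga4, the α4 integrin chain used in entry into the brain, was at 671 ± 355 against 644 ± 348 CPM, and Rgs1, which dampens chemokine receptor signals, at 665 ± 195 against 558 ± 233 CPM. Over 10 tested residency genes 0 were called with TMM and Rgs2 alone with library sizes (median -0.82). For 15 migration receptors 0 were called (median -0.68). Il7r, the interleukin-7 receptor of long-lived cells, was at 750 ± 278 against 446 ± 146 CPM, and 0 of 11 naive and central memory genes passed (median -0.98). Over all genes tested the median was -0.59.

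All 14 tested genes of the type I interferon response had negative log2 fold changes with TMM (13 of 14 with library sizes), with a median of -1.78 and 0 called. Over all genes tested, 4309 of 5607 were negative with TMM and 3635 with library sizes. The interferon genes were mostly of low level, where the filter favours negative values. Ifi203, an interferon-inducible gene of the p200 family, had a log2 fold change of -0.22. MHC class I genes had a median of -0.56 with 1 of 13 called (B2m), and the 11 ribosomal protein genes tested a median of -0.45 with 1 called (Rpl32), both near the median of all genes. Of the 8 tested glucocorticoid-related genes 0 passed, with a median of -0.28. Dusp1, a phosphatase gene induced by glucocorticoids and by stress, was at 517 ± 192 against 275 ± 135 CPM, higher in 5 of 5 mice (edgeR adjusted p = 0.694). Cycling genes were few, with Pcna UMIs in 13 members and 0 of 6 tested genes called.

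Marker lists of other cells were summed in the members of each mouse. The neutrophil, astrocyte and erythroid lists were at 0 in each mouse. The microglia list summed to 0 to 178 CPM with P2ry12, Tmem119, Csf1r and Trem2 at 0, beside 7.23 to 218 CPM in CD8 wells. The B cell list summed to 0 to 203 CPM in 4 mice and to 843 CPM in TAT-CRE 215, where CD8 wells were at 260 CPM, with Cd79a at 0. The dendritic cell list reached 609 CPM in TAT-CRE 215, against 7.23 CPM in CD8 wells of that mouse, and 0 to 21.7 CPM in the other mice, with Flt3, Zbtb46, Xcr1 and Itgax at 0. Its H2-Aa, H2-Ab1 and Cd74, which carry the class II pathway, were in 1, 1 and 3 wells. Cd4 is also made by some macrophages and dendritic cells, and Lyz2 and Cd14 were at 0. The γδ T cell list summed to 0 to 117 CPM against 160 to 481 CPM in CD8 wells, with Trdc at 0. The NK and NKT list was at 0 to 47.0 CPM against 195 to 300 CPM. Genes of innate-like T cells summed to 736 CPM in TAT-CRE 208, against 98.2 CPM in its CD8 wells, mostly as Il18r1, which conventional T cells also express, and to 0 to 223 CPM in the other mice. The neuron list was at 326 CPM in TAT-CRE 207 and 93.6 CPM in TAT-CRE 215, against 0 in their CD8 wells, and at 0 in the remaining mice. Only 1 of its 6 genes had UMIs in members, with Snap25, Syt1, Rbfox3, Tubb3 and Meg3 at 0. The part of these wells in the results was not tested. Oligodendrocyte genes were at 140 to 613 CPM against 224 to 510 CPM in CD8 wells, mostly Mbp, with Mog, Mobp and Mag at 0, and endothelial genes at 25.4 to 586 CPM.

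The effector transcripts were also compared between members with and without a Cd4 UMI, as a description. Ccl5 UMIs were found in 48.2% of the 85 members with a Cd4 UMI and in 46.7% of the 60 without one, beside 76.2% of CD8 wells and 53.2% of wells without a lineage UMI. Nkg7 was in 25.9% and 21.7% of these members against 48.9% of CD8 wells. Ly6c2 was in 12.9% of members with a Cd4 UMI and 20% of those without, at 123 ± 92.5 and 522 ± 553 CPM (SD over 5 mice), against 35.9% of CD8 wells. With members chosen by Cd4 alone, the log2 fold change against CD8 wells was -3.74 for Ly6c2 and -2.75 for Ccl5 under edgeR, both called. Fos was in 20.0% and 23.3% against 11.1%, and Nrp1 in 14.1% and 10% against 3.17%. Among the 145 members, 41 had none of Ccl5, Nkg7, Ly6c2, Ms4a4b and Prf1, 42 had 1 and 62 had 2 or more. Whether wells with these transcripts held CD4 cells, or CD8 cells without a captured coreceptor UMI, cannot be told apart here.

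Thinning every well to 400 UMIs, ribosomal RNA included, gave both classes the same total depth. A Ccl5 UMI was then in 21.4% ± 8.15 of members and 54.8% ± 11.2 of CD8 wells (SD over 5 mice), lower in 5 of 5, beside 49.4% and 73.9% before thinning. Nkg7 was in 10.1% against 21.4% and Prf1 in 0% against 3.58%, both lower in 5 of 5. Ly6c2 was in 7.68% against 12.9% and Ms4a4b in 16.8% against 27.8%, each lower in 4 of 5. Ly6c2 was higher in members of PBS 218 (23.8% against 15.7%). For the edgeR fit on thinned sums the classes were chosen again from the thinned UMIs. This left 9 to 27 CD4-lineage wells per mouse and 538 genes tested, so it does not compare the same wells. The Ly6c2 call was lost in that fit (log2 fold change -1.19, adjusted p = 0.904). In the other direction Fos was in 11.01% ± 1.03 against 4.47% ± 2.73 and Nrp1 in 8.41% ± 5.34 against 1.65% ± 1.69, higher in 5 of 5. Egr1 was higher in 4 of 5 mice (6.87% against 1.23%) and Rgs2 in 3 of 5 (11.4% against 4.60%). Hsp90ab1, called lower on the sums, was in 32.4% against 33.4% of wells. With 5 mice an exact sign-flip permutation cannot give a p below 0.05.

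Against the 682 wells without a lineage UMI, fewer genes were called than against CD8 wells. The fits held different genes and wells, and whether the members differed less was not tested. Of 4994 genes tested with edgeR, 3 were lower (0.0601%), namely Ccl5 (log2 fold change -1.46), Ly6c2 (-2.11) and Ms4a4b (-0.96). None was higher at an adjusted p below 0.05, with 32 higher and 274 lower at an unadjusted p below 0.05. The median gene was at -0.44, and these wells were shallower than the members.

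The study's treatment comparison was made within CD4-lineage wells, 107 from 3 TAT-CRE mice and 38 from 2 PBS mice. No gene of 1231 tested passed with edgeR (0% called) or DESeq2, and 59 had an unadjusted p below 0.05, 44 higher and 15 lower in TAT-CRE mice. The lowest adjusted p was 0.407 and the median log2 fold change 0.08. In CD8 wells of the same mice 0 genes passed. The edgeR p-values rest largely on a variance shared over genes. They therefore do not measure the spread of a single gene between these mice and their plates.

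Cd28, encoding the main costimulatory receptor of T cells (chromosome 1, 60716800 to 60773359, plus strand), had the lowest p. It had 18, 21 and 29 UMIs in members of TAT-CRE 207, 208 and 215 and 0 and 0 in those of PBS 216 and 218. These came from 6, 6 and 7 wells, so 19 of 107 TAT-CRE members had a Cd28 UMI and 0 of 38 PBS members, which allows a share of up to 7.89%. On the CPM scale it was at 391, 533 and 679 in TAT-CRE members. With UMIs pooled over mice and a floor of 3 counts for the 60510 PBS UMIs, the ratio was 10.7-fold. That ratio counts UMIs as independent, although they came from 19 wells, so it is no lower limit over wells or mice. In CD8 wells of the same plates it was at 221, 182 and 210 CPM for TAT-CRE mice and 144 and 164 CPM for PBS mice. The adjusted p was 0.407 with edgeR and 0.0796 with DESeq2. It fell below 0.05 under edgeR in 3 of 16 alternatives: 0.0260 with no filter on low genes, 0.0317 with each gene limited to 3 UMIs per well, and 0.0218 with the CD8 sums in the same fit.

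The other costimulation genes tested had positive values too, without a call. Each of these 7 had a positive log2 fold change, with a median of 1.79. Over all genes tested 668 of 1231 were positive, with a median of 0.08. Only 8 of the 15 listed genes, Cd28 among them, passed the filter. That filter favours positive values among genes of low level, so the count of positive genes is no support of its own. Summed without Cd28, the listed genes were at 2062 to 3184 CPM in TAT-CRE and 987 to 1449 CPM in PBS members, without overlap. Most list sums overlapped, but other lists, some of them unrelated, also separated the groups in members. Higher in TAT-CRE members was the type 17 list (843 to 2156 against 282 to 446 CPM). Lower were tissue residency genes (2765 to 3067 against 3077 to 4571 CPM) and S100 and annexin genes (5682 to 5922 against 6202 to 8249 CPM). Oligodendrocyte genes were lower too (140 to 434 against 493 to 613 CPM). These lists are examples. Separation of 3 mice from 2 is therefore not particular to costimulation genes, and it was not tested. Cd40lg, which chose members, is not in the list.

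**Figure D5:**
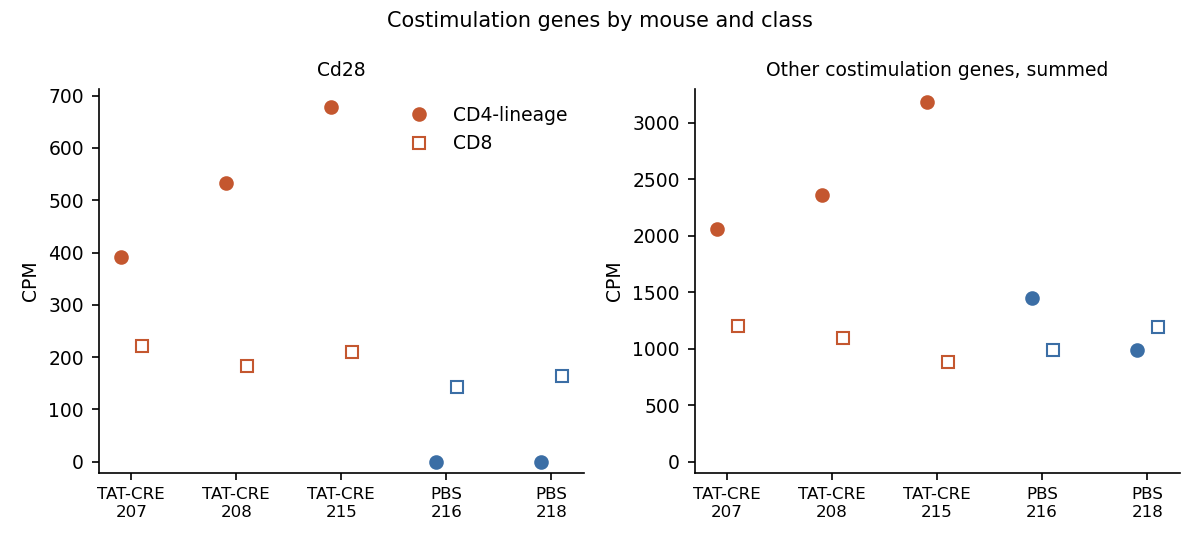
CPM of Cd28 and summed CPM of the 14 other costimulation genes in CD4-lineage and CD8 wells, 1 point per mouse and colour by treatment. Cd28 is at 391 to 679 CPM in CD4-lineage wells of TAT-CRE mice and at 0 in those of PBS mice. The summed other genes reach 2062 to 3184 against 987 to 1449 CPM.

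The remaining genes of lowest p were carried by few UMIs, and none passed. Higher in TAT-CRE members was Arid4b, a chromatin regulator gene (9, 34 and 10 UMIs against 0 and 0). So was Casp8ap2, a regulator of apoptosis and histone expression (8, 11 and 20 UMIs against 0 and 0). By the same pooled floor their ratios were 8.34-fold and 6.14-fold, again with UMIs counted as independent. G3bp1, a stress granule protein gene, had 11, 19 and 20 UMIs against 0 and 1. The mitochondrial gene mt-Nd4, whose annotation overlaps mt-Nd4l, was at 7945, 8549 and 10183 CPM against 6800 and 5544 CPM (log2 fold change 0.71 ± 0.19). Most Arid4b UMIs came from TAT-CRE 208. Arid4b and G3bp1 overlap other annotated genes on their strand. In PBS members Egr1 was higher, as given above (log2 fold change of TAT-CRE over PBS -1.81 ± 0.54, edgeR adjusted p = 0.629), and so was Zap70, the kinase that carries the receptor signal (10, 9 and 8 UMIs against 18 and 27, log2 fold change -1.74 ± 0.59). The chromatin gene Baz2a had 0, 3 and 0 UMIs against 11 and 21, the repressor gene Etv3 3, 0 and 0 against 12 and 15, and the autophagy gene Gabarapl2 4, 1 and 0 against 7 and 19. The summed early response list was at 6122 to 7280 CPM in TAT-CRE and 8269 to 8584 CPM in PBS members. Of its 13 genes tested for treatment, 6 were higher, 7 lower and 0 called (median log2 fold change -0.17). The glucocorticoid list was at 2931 to 3120 against 3400 to 3430 CPM. Of its 6 genes tested, 2 were higher, 4 lower and 0 called (median -0.21). Sums of unrelated lists separated the groups as well, as given above, and these differences in sums were not tested.

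Whether the difference between the lineages depended on treatment was tested as an interaction. Of 5607 genes tested for the interaction with edgeR 0 were called (0%), and 197 had an unadjusted p below 0.05, 149 of them positive. Over all genes tested the median log2 ratio was 0.49 and 3440 were positive, so positive ratios are read against this shift. The smallest p-values belonged to mt-Nd5 (log2 ratio 1.48 ± 0.37, adjusted p = 0.248), Cd28 (adjusted p = 0.248) and Casp8ap2 (adjusted p = 0.446). mt-Nd5 encodes a subunit of respiratory complex I and was at 2258, 3222 and 3511 CPM in TAT-CRE members and 2118 and 1128 CPM in PBS members, whereas the CD8 sums were at 2924, 1444 and 2915 against 3439 and 2435 CPM. With PBS 218 left out, Rnf213 was called (log2 ratio -6.19, edgeR adjusted p = 0.0259). With 2 PBS mice and 38 PBS members, changes of small size were not detectable at this depth.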

How the data were processed

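UMI counts per gene and well, 1 table per mouse, were deposited by the authors as whole numbers and are not normalised. Per the submitters' processing notes reads were demultiplexed with bcl2fastq 2.15.0.4 and the build was mm10. Aligner, gene annotation and use of strand were not given in the sources used here. How many cells a well received is a count deposited by the authors in the well table, per the file headers. The labels' extract protocol describes barcoding in capture plates, pooling and linear amplification.

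Wells and genes were filtered as the report states. UMIs of wells of a class were summed per mouse, and 4 ribosomal RNA genes and the spike-ins were left out of library sizes and levels (CPM). Genes with at least 30 UMIs over the sums entered the fits. The main test was edgeR 4.0.16 quasi-likelihood (R 4.3.3, limma 3.58.1) with TMM and Benjamini-Hochberg adjustment at 0.05, with the mouse as a block between classes (10 sums of 5 mice) and 3 against 2 mice for treatment. DESeq2 1.42.0, other scalings, filters and gates, and leaving out each mouse were alternatives. Shares were compared by exact permutation of mice with 95% exact (Clopper-Pearson) intervals. A count of 0 was given a limit of 3 counts, and such limits and intervals cover counting error only. The scripts were tested on simulated data. Python 3.11.15 with numpy 2.4.6, scipy 1.17.1, pandas 2.3.3 and matplotlib 3.10.9 was used. Doublets were not called, since wells were sorted to hold 1 cell.

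Genes named are the label's markers with Trbc2, up to 12 called genes of lowest p per direction between classes, 5 per direction for treatment and 3 for the interaction. From each gene list they are the called genes and up to 4 of highest level, and for helper subset lists each gene with a UMI. The wells, the gene lists and these rules were chosen with earlier results of these data known. Of 10328 genes with a UMI in members, 9996 (96.8%) were found by name in GENCODE M21 (GRCm38), the source of coordinates and sequences. Some genes of the lists are not reported here.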

Additional observations from a re-analysis of the deposited data

Results flagged for a closer look

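In 4 of the genes named for treatment or interaction, the difference between CD4-lineage and CD8 wells had one sign in all 3 TAT-CRE mice and the opposite sign in both PBS mice. For Cd28 the CD4-lineage level minus the CD8 level was 329.8 CPM on average in TAT-CRE mice and -153.8 CPM in PBS mice. For Arid4b the averages were 321.9 and -150.9 CPM, with most UMIs of TAT-CRE members in mouse 208. For Casp8ap2 they were 277.1 and -149.2 CPM. For Baz2a they ran the other way, -126.6 and 346.6 CPM. The edgeR interaction test passed for none of the 4, with adjusted p-values of 0.248 (Cd28), 0.529 (Arid4b), 0.446 (Casp8ap2) and 1 (Baz2a). These genes were picked for their low p in the same mice, so opposite signs are no independent support. The PBS values rest on 38 member wells.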

How the results depend on the processing

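The count of genes lower in CD4-lineage than in CD8 wells (16) was 7 with relative log expression (DESeq2 size factors in edgeR) and 5 with DESeq2. It was 35 without a filter and 3 at 100 UMIs or more. With wells thinned to 400 UMIs and their classes chosen again it was 1. It was 40 with members chosen by Cd4 alone. It ranged from 5 to 15 with 1 mouse left out. The count of higher genes (1) was 6 with relative log expression and 8 with DESeq2. It was 0 without a filter, at 100 UMIs or more, with a well minimum of 200 UMIs, with thinning and with Cd4 alone, and it ranged from 0 to 2 with 1 mouse left out. Chosen after seeing the data were library sizes alone (7 higher, 6 lower), each gene limited to 3 UMIs per well (0 higher, 68 lower) and CD8 sums thinned to the CD4-lineage total (7 lower). Without the replicate block of the mouse, 0 were higher and 5 lower.

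For treatment, 2 genes were called without a filter (Cd28 and Gm28437) and 1 (Cd28) with UMIs limited to 3 or with CD8 sums in the same fit. Without PBS 218 the interaction called 1. No paired analysis was possible for treatment because the groups share no replicate numbers. The cause of these moves was not tested, other than that thinning and stricter filters left fewer UMIs or genes. Ccl5 was called in 20 of 20 alternatives, Ly6c2 and Nkg7 in 19, Ms4a4b in 18, Prf1 in 17 and Egr1 in 10 of 19. The share of CD4-lineage wells was higher in TAT-CRE mice under each gate tried, by 4.08 to 6.001 points with 1 mouse left out (6.13 to 14.8 among lineage-assigned wells), and the difference in median UMIs ranged from -46.9 to 67. CD4-lineage sums of 17941 to 46065 UMIs limit what low genes can show.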
